A study of Mus musculus with 6 samples.

Results

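The regions described here are 4869 places on the autosomes of mouse macrophages where PU.1 was bound without C/EBPβ and where histone H3 was acetylated at lysine 9 (H3K9Ace) in macrophages but not in adipocytes. They were chosen by their positions in 4 deposited lists of called ChIP-seq regions (chromatin immunoprecipitation followed by sequencing). Each is an autosomal region of the macrophage PU.1 list that overlaps, by at least 1 bp, a region of the macrophage H3K9Ace list and none of the macrophage C/EBPβ or adipocyte H3K9Ace lists. They make up 10.7% of the 45485 autosomal PU.1 regions (46356 on all chromosomes) and 15.0% of the 32405 that lack C/EBPβ. The rule thus used PU.1, C/EBPβ and H3K9Ace, and those readouts are described below without a test. The PPARγ lists were not used by the rule, and they carry the tests.

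The study mapped the nuclear receptor PPARγ in macrophages and adipocytes to ask what sets its cell-specific function. The macrophages were peritoneal cells of male C57BL/6 mice that had received 1 ml of 3% thioglycollate 3 days earlier, an irritant that draws inflammatory cells into the abdominal cavity, and they were kept for 24 h in culture to select adherent cells. Cells of at least 4 animals were pooled for each run, so animals cannot be told apart. Libraries of PU.1, C/EBPβ, H3K9Ace and PPARγ were made from these cells. The adipocytes were differentiated 3T3-L1 cells, an established mouse preadipocyte line grown in culture, with libraries of H3K9Ace and PPARγ. A primary, elicited cell population is therefore set against an immortal line. The labels name no other agent given to the cells and no allele. Each of the 6 libraries is alone in its group. Tests run over the regions of a list, and they compare lists, not replicated cell populations.

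PU.1, encoded by Spi1, is an ETS-family transcription factor that myeloid cells and B cells need for their development. It binds purine-rich sites and takes part in opening macrophage enhancers, often beside C/EBP, AP-1 or IRF factors. C/EBPβ is a leucine-zipper factor active in both macrophages and fat cells, PU.1 is not part of the adipocyte programme, and PPARγ is a nuclear receptor needed to form fat cells that is also present in macrophages. H3K9Ace is laid down by histone acetyltransferases at active promoters and enhancers, so an overlap of PU.1 with H3K9Ace is often read as an active element.

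All lists give positions on mouse genome build mm8. Gene annotation and sequence of that build were not used here, so regions are named by position and no gene is assigned. The number of reads per library is unknown. The H3K9Ace list of adipocytes covers 100.1 Mb and that of macrophages 53.05 Mb, which bears on the rule: with more of the genome acetylated in the adipocyte list, fewer PU.1 regions can lie outside it.

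The autosomal PU.1 regions without C/EBPβ fell into 4 classes of acetylation. The largest class, 18862 regions, overlapped H3K9Ace in neither cell type. Another 6401 were acetylated in both cell types and 2273 in adipocytes only, which leaves the 4869 regions described here. Among PU.1 regions acetylated in macrophages only, those without C/EBPβ outnumbered the 4021 that also overlapped C/EBPβ and came to 54.8%. These counts follow from the rule.

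Membership turns on overlaps of a few bases at the borders. Overlap with macrophage H3K9Ace ran from 1 bp (6 regions, among them chromosome 1 at 64134799 to 64135015) to 1032 bp (chromosome 2 at 90278837 to 90279869). Just inside that border were 203 regions with an overlap of 1 to 50 bp. Just outside were 200 regions lacking C/EBPβ and adipocyte H3K9Ace whose gap to macrophage H3K9Ace was at most 50 bp. At the adipocyte border 57 regions lay within 50 bp of an adipocyte acetylated region, the nearest 1 bp away (2 regions, among them chromosome 12 at 70404071 to 70404299), and 70 otherwise eligible regions were left out for an overlap of 1 to 50 bp. At the C/EBPβ border 118 regions lay within 50 bp of a C/EBPβ region, and 57 were left out for an overlap of 1 to 50 bp. In 3 regions the gap to C/EBPβ was 0 bp, as on chromosome 19 at 32633557 to 32633766. If both lists count starts in the same way, such regions touched without sharing a base.

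Most of the regions lay more than 1 kb from adipocyte acetylation, but they were nearer to it than PU.1 regions outside it at large. The gap to the nearest adipocyte H3K9Ace region had a median of 13691 bp (quartiles 3412 and 44288 bp), and 12.4% of the regions had a gap of at most 1 kb. At the far end 11.7% lay more than 100 kb away, the most remote being the region on chromosome 17 at 90706062 to 90706386 with a gap of 2156812 bp. Over all 32697 autosomal PU.1 regions outside adipocyte H3K9Ace the median gap was 17631 bp. Of these 38.0% lay within 10 kb, against 43.25% of the regions described here. PU.1 regions with C/EBPβ and the same acetylation had a median gap of 16451 bp, and PU.1 regions without C/EBPβ or acetylation one of 18907 bp. The macrophage-acetylated regions without C/EBPβ were thus the nearest of the 3 classes to adipocyte acetylation, though their quartiles overlap widely with those of the others.

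**Figure D1:**
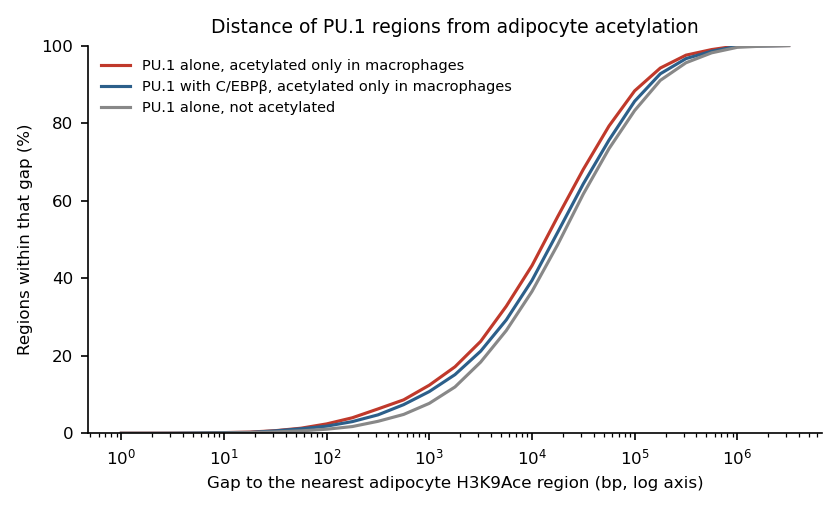
Cumulative share of PU.1 regions (y axis, percent) whose gap to the nearest adipocyte H3K9Ace region is at most the value on the x axis (bp, log axis), for 3 classes of autosomal PU.1 regions that do not overlap adipocyte H3K9Ace. The curve of the regions acetylated only in macrophages without C/EBPβ lies to the left of the other curves between 1 kb and 100 kb, with medians of 13691, 16451 and 18907 bp.

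C/EBPβ was absent from the PU.1 region itself but was often found nearby. The median gap to the nearest C/EBPβ region was 4345 bp (quartiles 923 and 14573 bp), and 26.0% of the regions had C/EBPβ within 1 kb. For PU.1 regions without C/EBPβ that were acetylated in both cell types the median was 5144 bp, with 25.1% within 1 kb. Where neither cell type was acetylated the median was 13343 bp, with 8.23% within 1 kb. "Alone" therefore holds for the bound region and not for its surroundings: 1271 of the 4869 regions, 26.1%, shared their macrophage acetylated region with a C/EBPβ region elsewhere in it. The share was higher, 32.4% (2072 of 6401), for PU.1 regions without C/EBPβ acetylated in both cell types.

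The macrophage acetylated regions that hold these sites were close in median width to macrophage acetylated regions at large. The 4869 regions fell into 4237 of them, with a median width of 1100 bp (quartiles 850 and 1750 bp), against 1050 bp for all 36757 autosomal macrophage H3K9Ace regions. Among regions that did not meet adipocyte H3K9Ace they were wider. The 3765 such hosts had a median of 1100 bp, and all 18977 such regions one of 850 bp. The greater width was not particular to these hosts. The median was also 1100 bp over the 2613 such regions that overlapped PU.1 but held none of the regions described here. Hosts of PU.1 regions acetylated in both cell types had a median width of 2200 bp (quartiles 1500 and 3100 bp). Of the 4237 hosts 3695, or 87.2%, held a single such region, 471 held 2, 56 held 3, 11 held 4 and 4 held 5. Adipocyte H3K9Ace met 472 hosts (11.1%) somewhere else along their length, and 536 of the 4869 PU.1 regions lay in such hosts. The share was 9.16% for hosts of PU.1 regions with C/EBPβ and the same acetylation. Over all autosomal macrophage H3K9Ace regions, 51.6% did not meet adipocyte H3K9Ace. Since the rule bars adipocyte H3K9Ace at the PU.1 region, a low share among the hosts follows in part from the rule.

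Seen from the acetylation, the regions account for a minority of what is marked in macrophages alone. Of the 18977 autosomal macrophage H3K9Ace regions that did not meet adipocyte H3K9Ace, 33.6% overlapped any PU.1 region, and 19.8% (3765) were hosts of the regions described here. The 12599 without PU.1 were narrower, with a median width of 750 bp against 1100 bp for the hosts. Macrophage PPARγ overlapped 0.564% of the acetylated regions without PU.1. It overlapped 4.33% of the 3765 hosts, 2.39% of the 2927 among them that lacked C/EBPβ throughout, and 10.2% of the 2613 that overlapped PU.1 but held none of the regions described here. In that last group a PU.1 region without C/EBPβ would belong to the class by the rule. Exceptions are PU.1 regions that reached adipocyte H3K9Ace beyond the acetylated region or shared more bases with another one. The group was thus in large part chosen for C/EBPβ. These shares are given without a test, since wider regions meet more of any list.

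Within their hosts the PU.1 centres lay more often in the middle than towards the ends. The median distance from the PU.1 centre to the centre of the host was 300 bp (quartiles 147.5 and 529.5 bp). Of the 4317 centres inside a host, 57.3% lay in the central 50% of its length. The share was 58.9% for PU.1 regions with C/EBPβ and the same acetylation and 61.1% for PU.1 regions without C/EBPβ acetylated in both cell types. In 552 regions, 11.3%, the PU.1 centre lay beyond the end of the acetylated region that it overlapped, and 74.7% of the regions lay wholly inside. In the wider hosts of regions acetylated in both cell types 4.33% of the centres lay outside and 89.8% of the regions wholly inside. The part of host width in these differences was not tested.

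**Figure D2:**
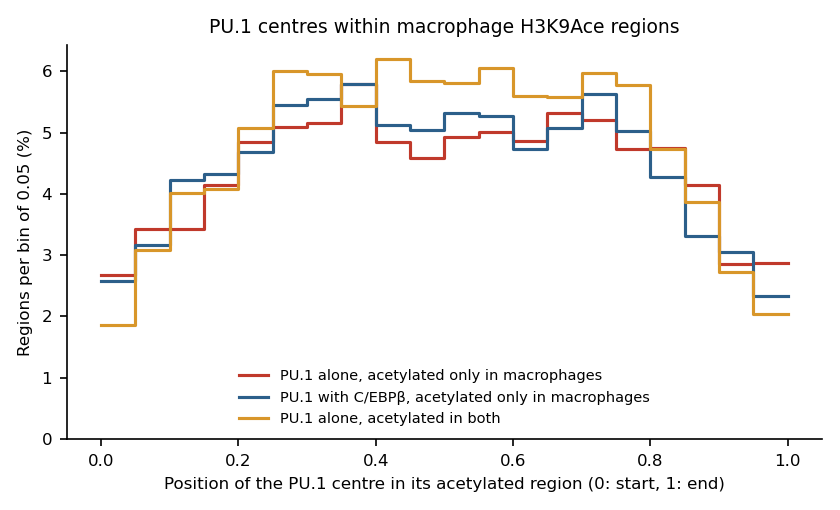
Position of the PU.1 centre along the macrophage acetylated region that it overlaps (x axis, 0 at the start and 1 at the end), as percent of each class per bin (y axis). Centres beyond the ends are not drawn: 11.3% of the PU.1-alone regions acetylated only in macrophages, 10.05% of those with C/EBPβ and 4.33% of those acetylated in both cell types. In each class the bins near the ends hold fewer centres than those in the middle, and of the centres inside a host 57.3%, 58.9% and 61.1% lie in the central 50%.

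Other PU.1 regions were usually close. The median gap to the nearest other PU.1 region was 1565 bp (quartiles 359 and 5476 bp), and 84.8% of the regions had one within 10 kb. The other classes acetylated in macrophages were similar. The median was 1617 bp (79.6% within 10 kb) without C/EBPβ and with acetylation in both cell types. With C/EBPβ it was 1316 bp (89.8%) when acetylated only in macrophages and 1311 bp (86.1%) when acetylated in both. Without C/EBPβ or acetylation in either cell type the median was 5950 bp (quartiles 1867 and 17496 bp), with 62.7% within 10 kb. Of the 4128 nearest neighbours within 10 kb, 33.0% belonged to the same class and 23.2% were PU.1 regions with C/EBPβ acetylated only in macrophages, against 13.0% and 11.4% of the neighbours of all autosomal PU.1 regions. Part of this is sharing of a single acetylated region, since 1829 of the neighbours (44.3%) lay in the same host. Among the other 2299 neighbours 29.1% were acetylated in macrophages only and 56.4% were not acetylated. The first share was 18.8% for PU.1 regions without C/EBPβ or acetylation and 33.3% for those with C/EBPβ and the same acetylation. Neighbours of like class were not particular to the regions described here. With C/EBPβ and the same acetylation, 31.9% of neighbours within 10 kb were of the same kind and 26.7% of the class described here. Without C/EBPβ and with acetylation in both cell types, 48.7% were of the same kind.

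A few hosts held 4 or 5 of these regions each, as the map of the 5 richest hosts shows. Similar classes gathered as well. A single host held up to 5 PU.1 regions with C/EBPβ and the same acetylation. For regions without C/EBPβ acetylated in both cell types the most was 6, with 11 hosts of 5 or more. The widest host, on chromosome 7 at 142187751 to 142210150 (22400 bp), held 5 of them within 6728 bp, together with 5 other PU.1 regions, 7 C/EBPβ regions and 4 macrophage PPARγ regions. Adipocyte H3K9Ace covered 49.6% of that host, all of it on the side away from the 5 regions. The host on chromosome 3 at 96069551 to 96083600 (14050 bp) held 5 with 3 other PU.1 and 3 C/EBPβ regions, and no adipocyte H3K9Ace.

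On chromosome 11 at 102986001 to 102992550 (6550 bp) and on chromosome 1 at 136946901 to 136952000 (5100 bp) all 5 PU.1 regions belonged to the class, each host having 1 C/EBPβ region apart from them. In the host on chromosome 11 an adipocyte H3K9Ace region of 850 bp (13.0% of the host) lay between these PU.1 regions. The host on chromosome 1 met no adipocyte H3K9Ace. The fifth host, on chromosome 12 at 3867851 to 3875700 (7850 bp), held 4 and was the widest of 11 hosts with that number. Of the 5 hosts only the one on chromosome 7 had macrophage PPARγ of the final list. Counting consecutive PU.1 regions instead, the longest unbroken run had 7, on chromosome 5 from 117394520 to 117401720 (7.2 kb), a run singled out after its values were seen.

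**Figure D3:**
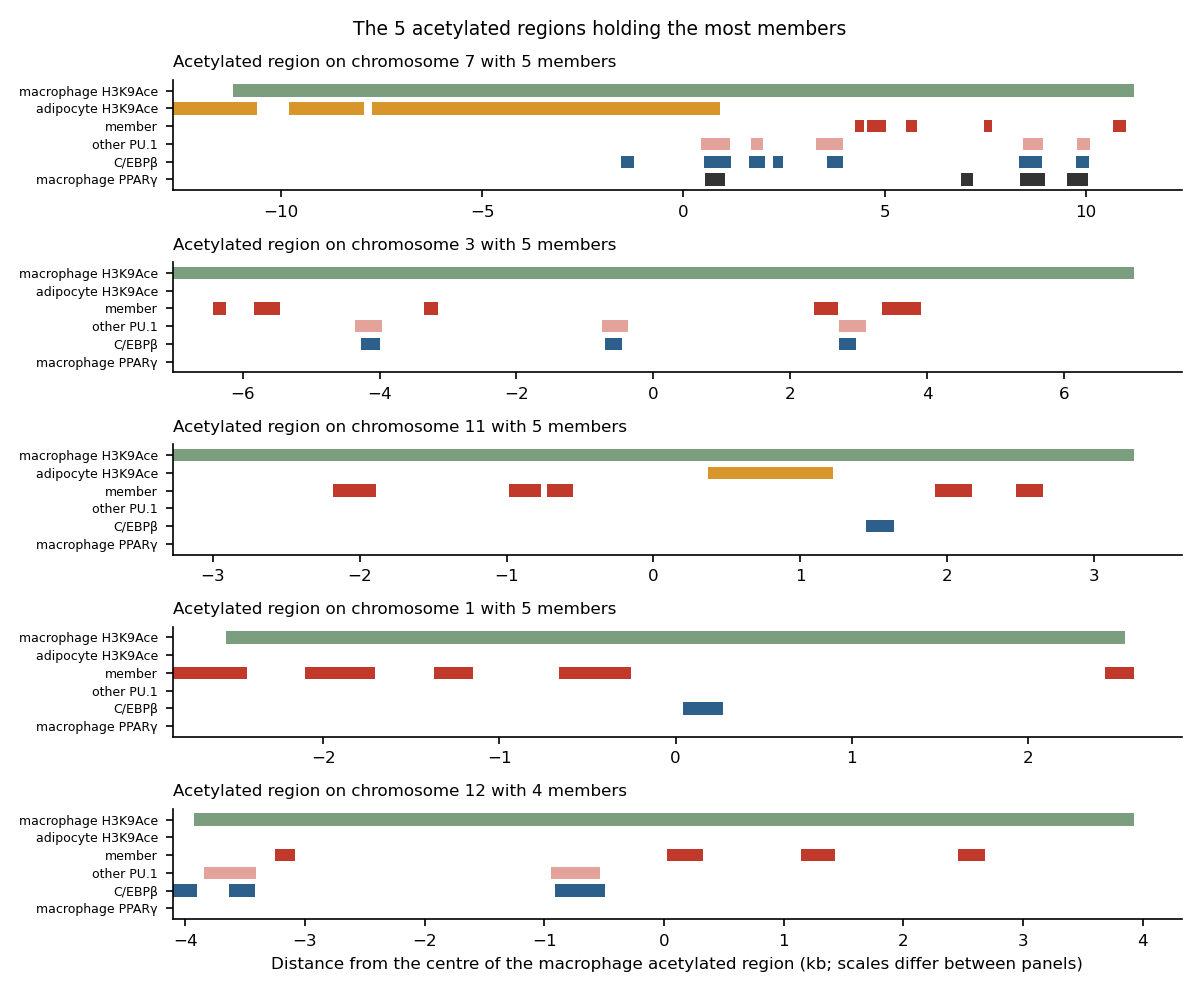
Maps of the 5 macrophage acetylated regions with the most members, that is, PU.1-alone regions acetylated only in macrophages; the x axis is the distance from the centre of the acetylated region in kb, and bars are called regions of each list, drawn to scale within a panel. C/EBPβ regions lie in all 5 hosts apart from the members, and only the host on chromosome 7 also holds macrophage PPARγ.

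The share of PU.1 regions without C/EBPβ that belonged to the class was similar over most chromosomes. It lay between 13.9% and 16.7% on chromosomes 1 to 17. Chromosome 18 had 114 of 1011 (11.3%, 95% Wilson interval 9.47 to 13.4) and chromosome 19 had 120 of 1026 (11.7%, 9.87 to 13.8), both below all of the others.

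The PU.1 regions of the class were slightly wider than PU.1 regions at large. Their widths ran from 125 to 1106 bp with a median of 249 bp (quartiles 204 and 325 bp), against 239 bp over all autosomal PU.1 regions. Regions without C/EBPβ had medians of 242 bp when acetylated in both cell types and 210 bp when not acetylated, and regions with C/EBPβ acetylated only in macrophages one of 340 bp. From the narrowest to the widest quartile of all autosomal PU.1 regions, the class took 9.41%, 13.4%, 17.8% and 24.3% of those without C/EBPβ. The PU.1 list carries positions only, so width and strength of binding cannot be told apart. The widest, on chromosome 2 at 127699970 to 127701076 (1106 bp), lay only in part (526 bp) in its 550-bp host. The next 2, on chromosome 2 at 90278837 to 90279869 and on chromosome 7 at 68612163 to 68613099 (936 bp), were the only PU.1 regions of hosts of 1550 and 1050 bp. None of the 3 overlapped macrophage PPARγ, in the final or in the longer list.

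The PPARγ lists were then compared with the class to ask whether the receptor was found at such sites. Macrophage PPARγ was rare at these PU.1 regions. The final macrophage list overlapped 97 of the 4869, 1.99% (95% Wilson interval 1.64 to 2.42), which is below the 2.83% over all autosomal PU.1 regions. At PU.1 regions with the same acetylation but with C/EBPβ the share was 9.03% (363 of 4021, 8.18 to 9.95), and at those not acetylated and without C/EBPβ it was 0.827% (156 of 18862, 0.708 to 0.967). Regions acetylated in both cell types without C/EBPβ lay between, at 1.42% (91 of 6401, 1.16 to 1.74). The intervals reflect counting alone and take each region as a separate draw, although neighbouring regions can share a host.

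The contrast with C/EBPβ-bearing regions was the largest. The odds of macrophage PPARγ at the regions without C/EBPβ were 0.205 of those at regions with it (95% interval 0.161 to 0.258; adjusted p = 5.95e-51 by Fisher's exact test, over 6 tests), and the share was lower on 19 of 19 autosomes. Against PU.1 regions without acetylation the odds were 2.44 times higher (1.87 to 3.17; adjusted p = 1.84e-10 by Fisher's exact test), with a higher share on 17 autosomes. This ratio was smaller among PU.1 regions of at least the median width (1.73, 1.26 to 2.36) and as a common ratio over quartiles of PU.1 width (1.70, 1.31 to 2.21). Against regions acetylated in both cell types they were 1.41 times higher (1.05 to 1.90; adjusted p = 0.0255 by Fisher's exact test), with a higher share on 14 autosomes. By the same exact test this last difference did not pass the threshold of 0.05 among PU.1 regions at least as wide as the median (1.28, adjusted p = 0.181), with overlaps of at least 50% of the PU.1 region (1.33, adjusted p = 0.0712) or with the upper 50% of the PPARγ list by fold (1.32, adjusted p = 0.275).

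**Figure D4:**
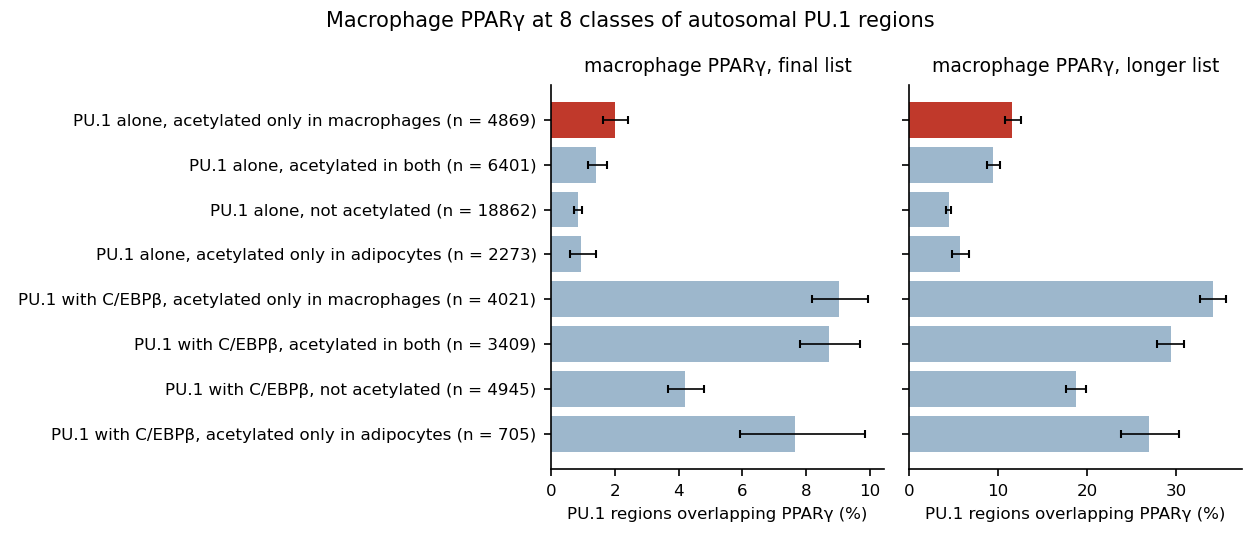
Percent of autosomal PU.1 regions overlapping macrophage PPARγ (x axis) in 8 classes by C/EBPβ and acetylation, for the final list (left) and the longer list (right); bars are shares, whiskers 95% Wilson intervals, and n is the number of PU.1 regions. The class described here, in red, had 1.99% and 11.6%, below each of the 4 classes with C/EBPβ.

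A longer macrophage PPARγ list, of 18470 regions against 1961 in the final one, gave the same order. It overlapped 565 of the 4869 regions, 11.6% (10.7 to 12.5), close to the 12.4% over all autosomal PU.1 regions. It overlapped 34.1% of the regions with C/EBPβ and the same acetylation, 9.42% of those without C/EBPβ acetylated in both cell types and 4.42% of those not acetylated. The corresponding odds ratios were 0.253, 1.26 and 2.84 (Fisher's exact test, adjusted p = 1.11e-145, 0.000216 and 1.3e-68).

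PPARγ was more frequent at the wider PU.1 regions. From the narrowest to the widest quartile the final list overlapped 0.629% (6 of 954), 1.40% (17 of 1215), 1.73% (24 of 1384) and 3.80% (50 of 1316) of the regions. Regions at least as wide as 239 bp had 2.63 times the odds of narrower ones (1.62 to 4.42; adjusted p = 0.000114 by Fisher's exact test over 4 tests within the class, added after seeing the data). Wider regions meet more of any list. Counting PPARγ centres within 500 bp instead of overlaps, the ratio was smaller, 1.87 (94 of 2700 against 41 of 2169, 1.28 to 2.78; adjusted p = 0.00318 by Fisher's exact test). In each quartile regions with C/EBPβ and the same acetylation had the higher share, from 3.77% in the narrowest to 11.6% in the widest. The common odds ratio over these quartiles was 0.282 (0.222 to 0.357), nearer to 1 than the 0.205 without strata. The quartiles are broad: the widest spans 317 to 1220 bp and holds 1316 of the 4869 regions without C/EBPβ but 2268 of the 4021 with it.

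**Figure D5:**
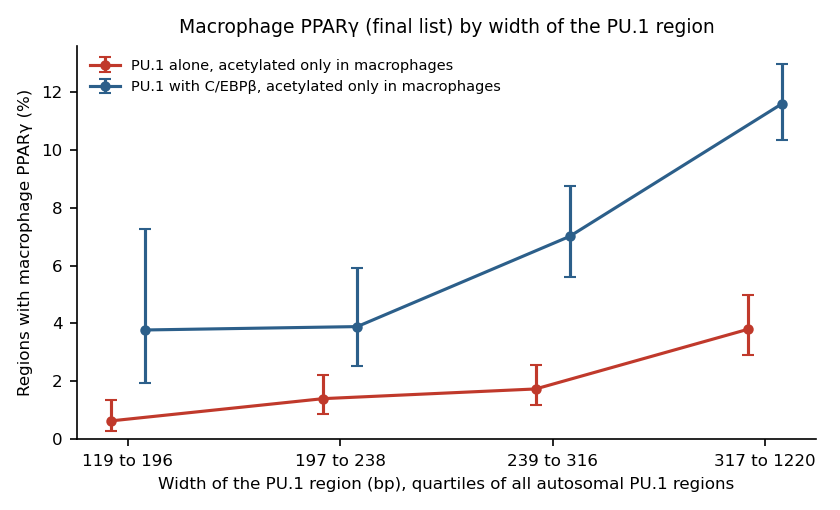
Percent of PU.1 regions overlapping macrophage PPARγ of the final list (y axis) by quartile of PU.1 region width in bp (x axis), for regions acetylated only in macrophages without C/EBPβ (red) and with it (blue); whiskers are 95% Wilson intervals. Shares rise with width in both classes, to 3.80% and 11.6%, and the red points lie below the blue ones throughout.

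For 3 other features of the surroundings no difference was detectable in overlaps with the final list. PPARγ overlapped 1.97% of the regions that shared their host with C/EBPβ elsewhere (25 of 1271) and 72 of the other 3598, an odds ratio of 0.983 (0.594 to 1.58). With another PU.1 region in the host the share was 1.90% (36 of 1895), and without one 2.05% (61 of 2974), an odds ratio of 0.925 (0.592 to 1.43). Where the host met adipocyte H3K9Ace elsewhere it was 1.87% (10 of 536), and 2.01% (87 of 4333) where it did not, an odds ratio of 0.928 (0.427 to 1.80). Each adjusted p was 1 by Fisher's exact test. Counting PPARγ centres of the final list within 500 bp instead of overlaps, the first ratio turned to 1.53 (47 of 1271 against 88 of 3598, 1.04 to 2.22; adjusted p = 0.0444 by Fisher's exact test).

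The longer list also differed for the first 2 of these: by Fisher's exact test its odds were 1.38 times higher with C/EBPβ in the host (1.13 to 1.67, adjusted p = 0.00147) and 1.38 times higher with another PU.1 region (1.15 to 1.65, adjusted p = 0.000806). The median host width was 2200 bp over the regions with C/EBPβ in the host and 1100 bp over the rest, and 1900 and 1050 bp with and without another PU.1 region. The part of host width in these ratios was not tested. Shares by distance from adipocyte acetylation depended on the list. From gaps under 1 kb to gaps of 100 kb and more, in 5 steps, the final list overlapped 1.65%, 2.13%, 1.92%, 2.35% and 1.41% of the regions, with intervals that overlap. The longer list overlapped 10.6%, 12.4%, 13.4%, 11.3% and 7.91%, and the interval of the last step (5.96 to 10.4) lay below that of the third (11.7 to 15.3).

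Where PPARγ of the final list overlapped these regions, its centre was close to that of PU.1, which the overlap itself favours. Its median fold and height there were close to those at other PU.1 regions. At the 97 regions the centres lay a median of 62 bp apart (quartiles 25 and 125 bp), and 69.1% within 100 bp. The median was 66.5 bp (68.3% within 100 bp) with C/EBPβ and the same acetylation. Over all autosomal PU.1 regions with PPARγ it was 63 bp (69.7%). The fold of a PPARγ region in the authors' list, whose reference is not named in the files, had a median of 6.19 (quartiles 5.69 and 7.62, highest 17.9). It was 6.17 at PPARγ sites of PU.1 regions with C/EBPβ and the same acetylation, and 6.37 over all autosomal PU.1 regions with PPARγ. The peak height, in the authors' whole units, had a median of 13, against 13 and 14 in those groups. The lower quartile of height was 11 in each of these groups. In the longer list the median fold was 4.26 at the class and 4.41 at regions with C/EBPβ and the same acetylation. It was 4.14 at regions without C/EBPβ acetylated in both cell types and 4.31 over all autosomal PU.1 regions with PPARγ. The median heights were 7, 8, 7 and 8 in the same order. These values are the authors' own, and their differences were not tested.

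The 8 regions with the highest PPARγ fold lay on 8 chromosomes. The first, on chromosome 9 at 108975618 to 108975914 (296 bp), had a PPARγ fold of 17.9 and a height of 33, with the PPARγ centre 46 bp away. Its 1000-bp host held no other PU.1 region and no C/EBPβ, the nearest C/EBPβ region being 35489 bp away and the nearest adipocyte acetylation 21618 bp. The second, on chromosome 1 at 89644841 to 89645070, had a fold of 14.3, centres 1 bp apart and a C/EBPβ gap of 14307 bp. The third, on chromosome 3 at 122282746 to 122283262, had a fold of 14.1 and the greatest height of the 97, 38. It lay 388 bp from adipocyte H3K9Ace and 1646 bp from C/EBPβ.

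Chromosome 12 at 86599812 to 86600083 followed with a fold of 12.2 and the nearest C/EBPβ at 34854 bp. The fifth, on chromosome 14 at 61199447 to 61200120 (fold 11.95), was 673 bp wide and lay whole in a host of 2150 bp. The sixth, on chromosome 2 at 165023686 to 165024148 (fold 11.5), shared its host with another PU.1 region. The seventh, on chromosome 16 at 32083331 to 32083609 (fold 11.45), was the only one whose host, of 3600 bp, also held C/EBPβ. The last, on chromosome 11 at 33931109 to 33931825 (fold 11.3, 716 bp wide), lay 744325 bp from adipocyte acetylation. None of the 8 hosts met adipocyte H3K9Ace.

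Adipocyte PPARγ was almost absent. The final adipocyte list overlapped 1 of the 4869 regions, 0.0205% (95% Wilson interval 0.00363 to 0.116), against 0.556% over all autosomal PU.1 regions. That region, on chromosome 11 at 86445672 to 86445933, had an adipocyte PPARγ fold of 8.52 and a height of 12, with centres 43 bp apart, and lay 4622 bp from adipocyte H3K9Ace. It also overlapped the longer macrophage PPARγ list, though not the final one, and none of the 97 regions with final macrophage PPARγ overlapped the final adipocyte list.

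The odds of adipocyte PPARγ were 0.0290 of those at regions without C/EBPβ acetylated in both cell types (0.703%; interval of the ratio 0.000719 to 0.170, adjusted p = 5.25e-10 by Fisher's exact test). Resting on 1 region, this ratio moved to 0.0811 (0.0554 to 0.115) with the longer adipocyte list, to 0.0987 (0.0351 to 0.225) with centres within 500 bp and to 0.0655 (0.00158 to 0.410) with the upper 50% by fold. Against regions with C/EBPβ acetylated only in macrophages (9 of 4021, 0.224%) the ratio was 0.0916 (0.00209 to 0.661; adjusted p = 0.0106 by Fisher's exact test). No difference from the unacetylated regions without C/EBPβ was detectable (9 of 18862, ratio 0.430, 0.00982 to 3.11; adjusted p = 0.698 by Fisher's exact test). The adipocyte PPARγ and H3K9Ace libraries come from the same cells, and the rule left out whatever was acetylated there. The second ratio rests on 10 regions in all and, by the same exact test, did not pass the threshold when centres within 500 bp were counted (6 against 10 regions, adjusted p = 0.252) or in the upper 50% by fold (1 against 2, adjusted p = 0.711). A longer adipocyte list, which combines 3 datasets according to its name, overlapped 34 of the 4869, 0.698% (0.500 to 0.974), against 3.93% over all autosomal PU.1 regions. The share was similar, 0.647%, at unacetylated regions without C/EBPβ. Regions of this list had a median width of 899 bp, against 260 bp in the final adipocyte list.

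In the wider neighbourhood macrophage PPARγ followed the same order. A centre of the final macrophage PPARγ list lay within 10 kb of 15.3% of the regions, against 23.5% for those with C/EBPβ and the same acetylation, 10.6% for those without C/EBPβ acetylated in both cell types and 6.49% for those not acetylated. For the final adipocyte list the shares were 2.69%, 2.74%, 9.42% and 3.00% in the same order of classes, so that only the class acetylated in both cell types stood apart among these 4. The median distance to adipocyte PPARγ was 262.6 kb, against 277.1, 148.9 and 285.1 kb. No test was made of these distances.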

How the data were processed

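Per the labels' protocols, the authors placed 36-bp reads on mm8 with ELAND, with up to 2 mismatches and a unique best match; 2 runs were joined for macrophage PPARγ and 1 was made for each other library. The deposited lists hold called regions. Neither a control library nor caller settings nor depth is given by the labels or headers read here. Per the file headers, the PPARγ lists also carry a fold and a height for each region, the height being a whole-number signal; these were used to describe regions and to take the upper 50% of a list. Input-biased areas were masked by the authors before the final lists, per the series' design text.

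Libraries were grouped by title; the description field names PPARγ for all 6. Of the adipocyte H3K9Ace list, 20 repeated rows were counted once. Overlap means at least 1 shared bp, and a PU.1 region's host is the macrophage H3K9Ace region sharing most bp with it. PU.1 and PPARγ positions are printed as deposited, and starts of H3K9Ace regions were raised by 1 to count from 1. Whether PU.1 and PPARγ starts already count from 1 is not stated, so overlaps and gaps could shift by 1 bp.

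For PPARγ shares, Fisher's exact test (2-sided, scipy 1.17.1) gave p-values, adjusted by Benjamini and Hochberg's method over 6 tests between classes and over 4 within the class; odds ratios are sample ratios, with 95% intervals from the conditional exact method. Stratified odds ratios are Mantel-Haenszel estimates (statsmodels 0.14.6). Overlap and test code was checked on made-up regions with known answers. The regions, the classes and the tests were chosen with earlier results of these data known. Named regions are the 8 with the highest fold of overlapping macrophage PPARγ, the 5 hosts with most members, the 3 widest, those with adipocyte PPARγ and those at the borders of the rule. Motifs and genes planned for mm8 were not analysed here.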

Additional observations from a re-analysis of the deposited data

How the results depend on the processing

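The 6 tests between classes were repeated under 9 other settings, and 3 of them also over strata of width chosen after seeing the data. Of these 59 values 52 kept their direction and their side of the threshold. Macrophage PPARγ against regions acetylated in both cell types fell short with PU.1 regions at least as wide as the median (1.28), coverage of at least 50% (1.33) and the upper 50% by fold (1.32). Adipocyte PPARγ against regions with C/EBPβ fell short with centres within 500 bp (0.495) and the upper 50% by fold (0.413). Against unacetylated regions its ratio, which passed no threshold, turned to 1.66 with centres within 500 bp and to 1.08 with the combined list.

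Within the class the higher odds at wide PU.1 regions held in each alternative run, from 1.87 with centres within 500 bp to 3.06 with 50% coverage. The other 3 ratios, all close to 1, changed sides in some. For C/EBPβ in the host the ratio was 1.53 with centres within 500 bp (Fisher's exact test, adjusted p = 0.0444), 1.04 with wide PU.1 regions, 1.25 with 50% coverage and 1.38 with the longer list. For another PU.1 region in the host it was 1.39 with centres within 500 bp, 1.38 with the longer list and 1.08 with the upper 50% by fold. For hosts meeting adipocyte H3K9Ace it was 1.09 with centres within 500 bp and 1.74 without adipocyte H3K9Ace within 1000 bp. The causes were not tested. The number of regions was 4025 without C/EBPβ within 500 bp, 4264 without adipocyte H3K9Ace within 1000 bp, 4896 with 50% coverage and 4920 with chromosomes X and Y. With 1 library per target and unknown depth, absence from a list cannot be told apart from weak binding or acetylation.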
